A study of Mus musculus with 12 samples.

Results

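Matricellular proteins are secreted proteins that sit in the extracellular matrix and act on cells by binding receptors, growth factors and other matrix proteins, rather than mainly as structural fibres. They are low in most resting adult tissues and are known to rise in injured arteries, bone and scars. The set described here holds 10 genes: the thrombospondins Thbs1 and Thbs2, periostin (Postn), tenascin C (Tnc), osteonectin (Sparc) and its relative hevin (Sparcl1), fibronectin (Fn1), Tgfbi (a relative of periostin), and the fibulins Fbln1 and Fbln2. Fibronectin is also a structural adhesion protein and serves as the scaffold on which many of the others are laid down. The members were chosen by gene name, and all 10 were found among the 26728 names shared by both count tables.

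RNA was sequenced from primary vascular smooth muscle cells of mouse aorta, either wild type (WT) or NR4A3KO (here KO), the latter named as a knockout of the nuclear receptor NR4A3, at day 1 and at day 14. Each of the 4 groups had 3 libraries, with 13848199 to 30105118 counts per library. The protocols give 1 medium for every group, DMEM/F12 with 10% fetal bovine serum and 10 mM β-glycerophosphate (β-GP, a phosphate donor that drives mineral deposition in such cultures). The treatment label differs all the same: it is none for WT and β-GP for KO at both days, so a KO effect and whatever this label stands for cannot be told apart. The labels used here give no mouse strain, age or deleted exon, and do not say that replicates are separate animals or cultures. The p-values therefore measure the spread between libraries, which may be technical.

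Levels are CPM (library-scaled counts, with 1 CPM being 1 count in 1e6) on 1 scale for all 12 libraries, changes are log2 fold changes from edgeR's quasi-likelihood test, and a gene was called at a Benjamini-Hochberg adjusted p below 0.05 over all genes tested. Nr4a3 was lower in KO at both days, at 2.07 ± 0.235 against 4.24 ± 0.384 CPM at day 1 and 49.6 ± 13.5 against 236.9 ± 19.6 CPM at day 14 (mean ± SD, n = 3). WT replicate 1 of day 14 stood apart from the other WT libraries of that day, and it was the lowest of the 3 for 8 of the 10 members. The smooth muscle markers Acta2 (276 ± 19.3 to 1626 ± 190 CPM over the groups), Des and Smtn were expressed, whereas Tagln, which marks contractile smooth muscle, had only 2 to 11 counts per group and Myh11 only 7 to 31. Markers of other cell types moved too: the summed level of 8 adventitial fibroblast markers ran from 564 to 570.4 CPM (WT) and from 244 to 367 CPM (KO) on day 1, then from 507 to 697 CPM (WT) and from 682 to 762 CPM (KO) on day 14. That sum is mostly Ly6a (526 ± 86.6 and 623 ± 36.7 CPM in WT and KO of day 14, adjusted p = 0.160), and it hides markers that moved apart. At day 14 Cd34 (7.52 ± 0.708 against 39.2 ± 4.38 CPM) and Dcn (8.47 ± 1.11 against 23.3 ± 5.18 CPM) were called lower in KO, and Pdgfra (75.7 ± 2.72 against 33.3 ± 6.33 CPM) and Col14a1 higher. The 6 mesothelial markers summed to 401 to 409 CPM (WT) and 358 to 366 CPM (KO) on day 1, then to 278 to 417 CPM (WT) and 78.6 to 82.4 CPM (KO) on day 14. Lum and Dpt among the fibroblast markers, and Upk3b and Lrrn4 among the mesothelial ones, stood at 0 counts in at least 1 group.

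Other marker sums moved as well, given here as medians over libraries in the order WT and KO of day 1, WT and KO of day 14. They were 106, 384, 524 and 1123 CPM for adipocyte markers, of which Adipoq, Plin1, Cidec and Cfd were each at 0 counts in at least 1 group. That sum is nearly all Lpl (means of 105, 361, 456 and 1077 CPM). At day 14 Lpl was called higher in KO, but Fabp4 was called lower (8.07 ± 1.18 against 16.8 ± 4.84 CPM, adjusted p = 0.00496). Macrophage markers summed to 22.6, 51.0, 64.4 and 34.9 CPM (Ptprc, C1qa, C1qb, Mrc1 and Adgre1 were each at 0 in at least 1 group), Schwann markers to 5.53, 10.04, 13.6 and 2.54 CPM, and endothelial markers to 14.7, 4.82, 9.39 and 7.97 CPM. The macrophage sum is nearly all Cd68 (means of 21.9, 48.6, 57.8 and 30.7 CPM), called lower in KO at day 14, where Csf1r was called higher. The endothelial sum is mostly Cdh5, called lower in KO at day 1, where Vwf was called higher. At day 14 Vwf and Kdr were called lower in KO and Cdh5 was not called. The smooth muscle markers summed to 1050, 1350.5, 1734 and 2118 CPM. Of these markers 5 were tested at each day. In KO 3 were called higher and 1 lower at day 1, and 2 higher and 2 lower at day 14. Acta2 (means of 276, 667, 661 and 1626 CPM) was called higher in KO at both days, and Smtn lower at both. Des was called lower in KO at day 14 (480 ± 20.6 against 812 ± 249 CPM). The adipocyte, macrophage and smooth muscle sums were lowest in WT of day 1. The adventitial fibroblast and endothelial sums were lowest in KO of day 1, and the Schwann and mesothelial sums in KO of day 14. The part of other cell types in the results was not tested. In bulk RNA, fewer cells of a type and less RNA per cell cannot be told apart.

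The members did not move as 1 group. Fn1, Thbs1, Thbs2, Sparc and Fbln1 fell in KO at day 1 and rose in KO at day 14. Sparcl1 rose in KO at both days. Postn was nearly silent in WT at day 1 alone and stood at similar levels in the other groups. Tnc was highest in WT at day 1, Fbln2 was lowest in KO at day 1, and Tgfbi was close to 0 throughout. These descriptions of shape were made after the values were seen.

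**Figure D1:**
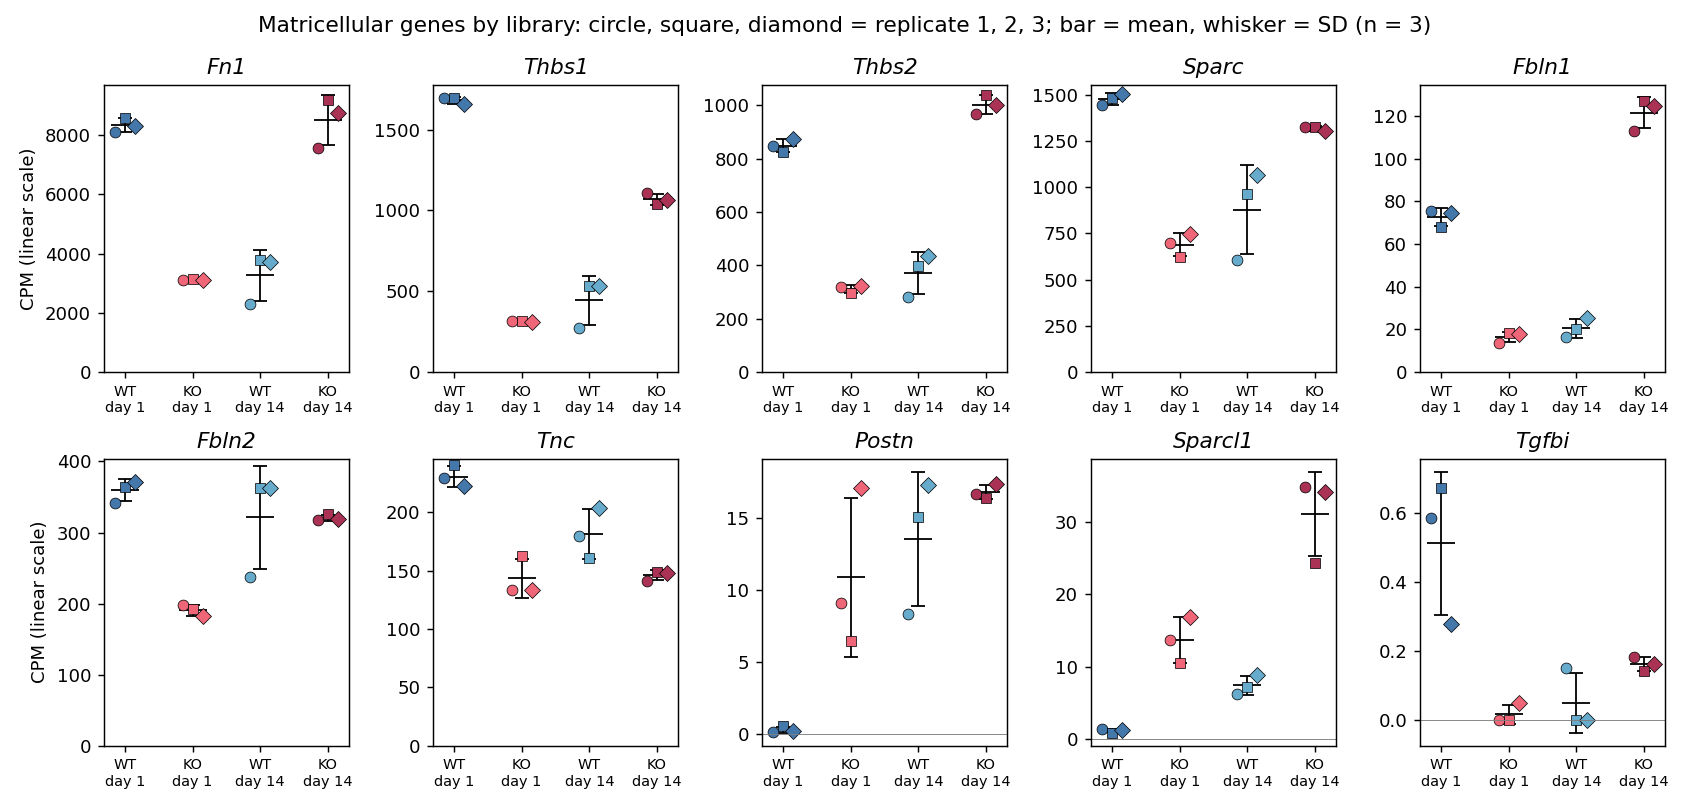
CPM of each member (vertical axes, linear, different range in each panel) in the 12 libraries, by genotype and day, with the mean and SD of 3 libraries. Fn1, Thbs1, Thbs2, Sparc and Fbln1 are high in WT of day 1 and KO of day 14, Postn is low only in WT of day 1, and WT replicate 1 of day 14 (circle) is the lowest of its group in most panels.

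The promoter sequences of members that moved in different ways are shown so that their proximal upstream letters can be compared. They are the 250 bases before a RefSeq gene start in build GRCm38.p6, which is not the build of the counts, and 7 members matched the table (Fn1, Thbs1 and Sparcl1 did not). Capitals mark CAGAC or its reverse complement, the core letters bound by SMAD proteins, which carry TGF-beta signals to DNA. Postn has a pair of listed starts, at chr3:54359017-54359266 and chr3:54360857-54361106, both on the plus strand. Thbs2 (chr17:14694263-14694512, minus strand), Sparc (chr11:55420081-55420330, minus strand) and Fbln1 (chr15:85205699-85205948, plus strand, the first of its starts) stand for the members that fell and then rose.
Postn, first start: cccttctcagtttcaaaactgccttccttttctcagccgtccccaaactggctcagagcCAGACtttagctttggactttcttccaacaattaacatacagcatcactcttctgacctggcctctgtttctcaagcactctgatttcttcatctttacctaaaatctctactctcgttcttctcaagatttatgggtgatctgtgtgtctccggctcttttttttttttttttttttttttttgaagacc
Postn, second start: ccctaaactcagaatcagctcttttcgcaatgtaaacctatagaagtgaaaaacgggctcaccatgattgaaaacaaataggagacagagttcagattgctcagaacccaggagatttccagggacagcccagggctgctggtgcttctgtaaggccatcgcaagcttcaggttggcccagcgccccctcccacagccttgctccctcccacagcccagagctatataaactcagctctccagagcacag
Thbs2: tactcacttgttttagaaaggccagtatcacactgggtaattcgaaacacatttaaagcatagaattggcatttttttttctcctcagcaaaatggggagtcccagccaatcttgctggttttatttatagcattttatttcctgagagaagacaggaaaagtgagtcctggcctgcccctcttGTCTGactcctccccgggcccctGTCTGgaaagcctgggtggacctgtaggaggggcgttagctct
Sparc: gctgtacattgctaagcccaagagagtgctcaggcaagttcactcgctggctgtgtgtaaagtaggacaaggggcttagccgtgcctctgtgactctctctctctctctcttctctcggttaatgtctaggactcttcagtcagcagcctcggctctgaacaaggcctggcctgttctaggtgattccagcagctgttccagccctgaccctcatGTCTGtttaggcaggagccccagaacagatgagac
Fbln1: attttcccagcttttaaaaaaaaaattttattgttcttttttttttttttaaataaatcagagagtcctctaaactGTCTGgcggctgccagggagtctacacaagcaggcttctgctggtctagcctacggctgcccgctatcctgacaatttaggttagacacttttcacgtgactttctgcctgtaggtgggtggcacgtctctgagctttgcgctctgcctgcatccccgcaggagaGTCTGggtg
CAGAC was found on either strand in 7 of the 10 upstream windows of the matched members, and in 42.2% of the 32851 windows of the table. The pairs of windows of Fbln1 and of Tnc overlap, and both Fbln1 windows hold the same 2 sites, so these windows are not separate counts. By gene, 6 of the 7 matched members had a match in at least 1 window, all but Fbln2. The share by gene over the whole table was not counted, so this has no baseline. The first Postn window holds 1 match, 191 bases before the start, and the second holds none. Thbs2 has 2 matches (66 and 43 bases before the start), Sparc has 1 (35 bases) and Fbln1 has 2 (174 and 9 bases). AAAGGTCA, the NBRE element that NR4A receptors bind as monomers, was in none of the 10 windows and in 1.34% of all windows. TGANTCA (AP-1, 6.75% of all windows) and GGAATG (TEAD, 12.6%) were also in none. The motifs do not overlap in these windows, both strands were searched, and a missing match says only that the letters are not in these bases.

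As a share of all counts, the members weighed most in WT of day 1 and KO of day 14. They took 1.22%, 1.25% and 1.23% of the counts in the WT libraries of day 1, and 0.501%, 0.501% and 0.496% in the KO libraries. At day 14 the order was turned, with 0.405%, 0.647% and 0.660% in WT and 1.13%, 1.31% and 1.26% in KO. The groups did not overlap at either day. Fn1 alone made up 59.1% to 67.8% of the members' counts, and without it the share was still higher in WT at day 1 (0.442% ± 0.00269 against 0.175% ± 0.00403) and in KO at day 14 (0.395% ± 0.00416 against 0.232% ± 0.0572; SD, n = 3). Per kilobase of merged exons, Fn1 ranked highest in every group, followed in order by Sparc, Thbs1, Thbs2 and Fbln2. In WT of day 1 these levels per length were 713 ± 20.7, 390.03 ± 8.25, 277 ± 3.68, 121 ± 3.69 and 56.4 ± 2.44 CPM per kb. In KO of day 1 the gap between Thbs1 (51.8 ± 1.04 CPM per kb) and Thbs2 (44.5 ± 2.09) was small. Sparcl1, Postn and Tgfbi held ranks 7 to 10 in every group.

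**Figure D2:**
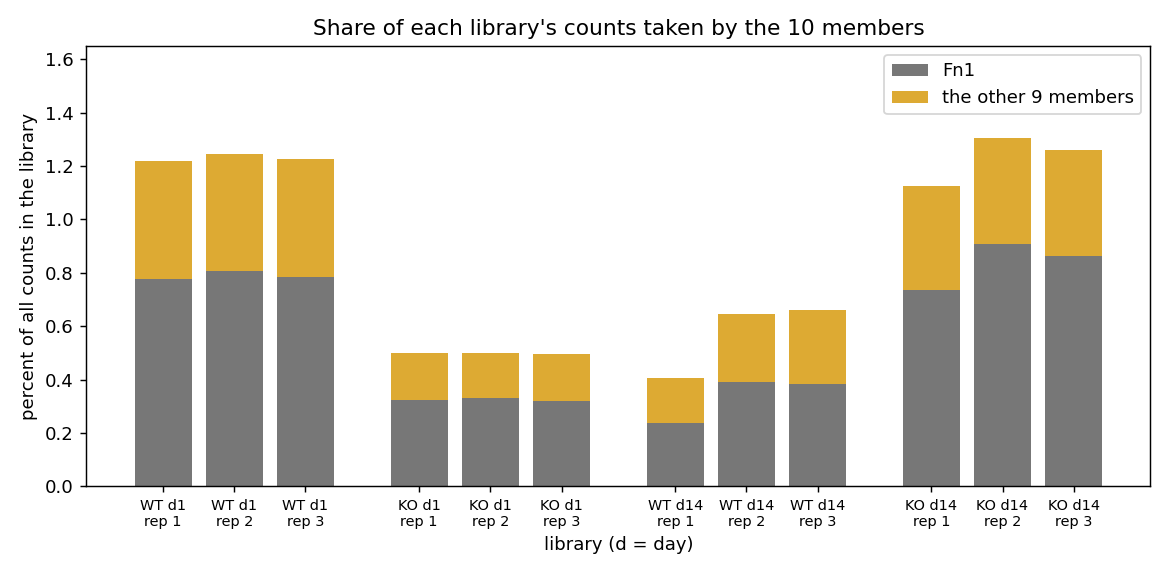
Percent of each library's counts (vertical axis, from 0) taken by Fn1 (grey) and by the other 9 members (yellow), for the 12 libraries. All 3 WT libraries of day 1 and all 3 KO libraries of day 14 lie above 1.1%, and the other libraries lie below 0.67%.

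The contrast of genotypes at day 1 addresses early culture. Of the 10 members 9 could be tested and all 9 were called: in KO 7 were lower and 2 were higher. Postn, 1 of the 2, passed the filter on low counts only through KO, the group where it is high. Its call at day 1 is therefore no support for a difference. The members' median log2 fold change was -1.09 and that of all genes 0.01. Called genes made up 60.8% of all genes tested in this comparison, 30.6% higher and 30.2% lower in KO. Of the called genes 50.4% were higher in KO, and 61.6% with library size alone as the scaling, under which the members' calls were again 2 higher and 7 lower. Groups did not overlap for any of the 9 members, but how often this holds among all genes tested was not counted.

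At day 14 the same comparison gave 7 calls among the 9 tested members, 6 higher and 1 lower in KO, with a median log2 fold change of 1.25 (all genes 0.00). Here 46.4% of all genes tested were called, 22.7% higher and 23.7% lower. Without WT replicate 1 of day 14, 8 members were called (Fbln2 also passed), against 60.6% of all genes tested. Without WT replicate 3 there were 6, against 41.4%, and without any 1 of the KO replicates there were 5, against 33.7% to 34.8%. The fall or rise in KO differed between the days for all 9 tested members by the interaction term of the fit of 12 libraries, against 60.1% of all genes tested.

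**Figure D3:**
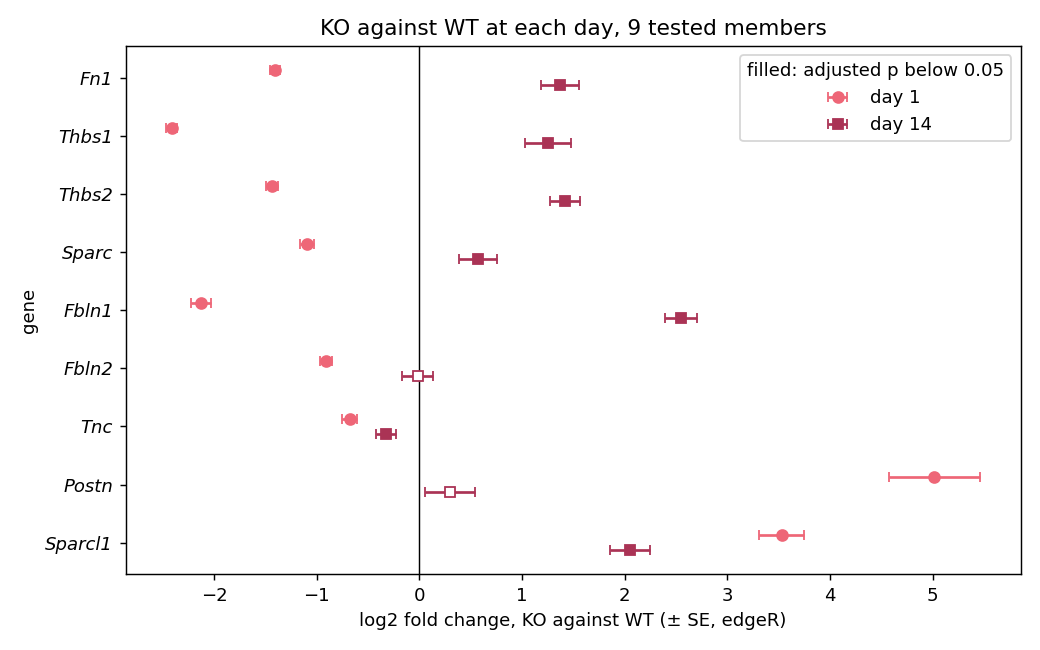
Log2 fold change of KO against WT (horizontal axis, ± SE from edgeR) for the 9 tested members at day 1 (circles) and day 14 (squares), filled where the adjusted p was below 0.05. At day 1 7 members lie left of 0, and at day 14 only Tnc was called lower in KO.

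Fn1, the cell-adhesive glycoprotein that integrins assemble into fibrils, was the most abundant member. It stood at 8104, 8585 and 8303 CPM in WT and at 3114, 3147 and 3110.1 CPM in KO at day 1. At day 14 it stood at 2284, 3783 and 3716 CPM in WT and at 7570.2, 9195 and 8742 CPM in KO. The KO libraries lay below all WT libraries at day 1 and above all of them at day 14. The log2 fold change of KO against WT was -1.41 ± 0.05 (SE, adjusted p = 1.29e-10) at day 1 and 1.37 ± 0.19 (adjusted p = 4.03e-04) at day 14. Apol7d, annotated on the opposite strand of Fn1, reached at most 2.63 CPM, and since the use of strand is not given in the sources used here its reads cannot be told apart from those of Fn1.

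Thbs1 encodes thrombospondin 1, which activates latent TGF-beta and restrains nitric oxide signalling through its receptors CD47 and CD36. Its level was 1694, 1696 and 1657 CPM in WT and 319, 318 and 307 CPM in KO at day 1. At day 14 it was 270.3, 533 and 530.5 CPM in WT and 1105, 1037 and 1064 CPM in KO. No KO library overlapped the WT libraries of its day. This was the largest fall among the tested members at day 1, with a log2 fold change of -2.41 ± 0.05 (SE, adjusted p = 2.22e-12). At day 14 Thbs1 was higher in KO by 1.25 ± 0.23 (adjusted p = 0.00195).

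Thbs2 encodes thrombospondin 2, which shapes collagen fibrils and inhibits angiogenesis. WT libraries held 849, 823 and 875 CPM at day 1, and KO libraries held 319.6, 295 and 321 CPM. By day 14 the WT values were 282, 399 and 434 CPM, below the KO values of 968, 1039 and 1002 CPM. The fall at day 1 (-1.44 ± 0.06, adjusted p = 2.85e-10) and the rise at day 14 (1.42 ± 0.15, adjusted p = 9.70e-05) were of nearly the same size. Over the 12 libraries Thbs2 and Fn1 were the closest pair of tested members in pattern, with a root mean square difference of 0.13 between their centred log2 CPM.

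Sparc encodes osteonectin, a collagen-binding protein abundant in bone and in remodelling vessels. It measured 1445, 1481 and 1507 CPM in WT and 697, 622 and 747 CPM in KO at day 1 (-1.09 ± 0.07, adjusted p = 1.61e-08). At day 14 WT held 607, 963 and 1068 CPM and KO held 1327, 1327 and 1302 CPM, with no overlap. The rise at day 14 was 0.57 ± 0.18 (SE, adjusted p = 0.0287). It was 0.35 (adjusted p = 2.56e-04) without WT replicate 1, and it did not pass without KO replicate 1 (adjusted p = 0.0788), 2 (0.0795) or 3 (0.0733).

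Fbln1 encodes fibulin 1, an elastic fibre and basement membrane protein that binds fibronectin. At day 1 WT held 75.3, 67.8 and 74.6 CPM and KO 13.8, 18.1 and 17.6 CPM. At day 14 WT held 16.4, 20.1 and 25.2 CPM and KO 113, 127 and 124 CPM. The groups lay far apart at both days, in opposite order. The log2 fold change went from -2.13 ± 0.10 (adjusted p = 1.27e-09) to 2.55 ± 0.15 (SE, adjusted p = 5.03e-06), and the difference between the days, 4.70 ± 0.19 (adjusted p = 3.63e-11), had the smallest adjusted p among the members.

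Fbln2, fibulin 2, is a relative of Fbln1 that marks developing valves and injured vessels. It stood at 342, 365 and 372 CPM in WT and 198, 193 and 182 CPM in KO at day 1 (-0.90 ± 0.06, adjusted p = 2.48e-08). At day 14 it stood at 238, 363 and 363 CPM in WT and 317, 326 and 319 CPM in KO, and these groups overlapped. No difference passed there (-0.02 ± 0.15, adjusted p = 0.943), but without WT replicate 1 Fbln2 was lower in KO by -0.21 (adjusted p = 0.00757). KO libraries of day 1 were thus the lowest of all groups.

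Tnc encodes tenascin C, a hexameric glycoprotein that weakens adhesion to fibronectin. Its values were 229, 240.3 and 222 CPM in WT and 133, 163 and 134 CPM in KO at day 1. At day 14 they were 180.1, 161 and 204 CPM in WT and 142, 149 and 148 CPM in KO. Tnc was the only member called lower in KO at both days, by -0.68 ± 0.08 (adjusted p = 5.54e-06) and -0.33 ± 0.10 (SE, adjusted p = 0.0254). The call of day 14 was lost without WT replicate 3 (adjusted p = 0.0816) or KO replicate 1 (0.0997), 2 (0.0691) or 3 (0.0745). The difference between the days, 0.37 ± 0.13 (adjusted p = 0.0252), was lost with library size alone as the scaling (0.16, adjusted p = 0.325). It was also lost without WT replicate 2 of day 1 (adjusted p = 0.0593) or of day 14 (0.0798), without KO replicate 1 (0.0940) or 3 (0.0739) of day 1, and without KO replicate 2 (0.0683) or 3 (0.0681) of day 14. A transcript on the opposite strand of Tnc, 8030451A03Rik, reached at most 6.90 CPM.

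Postn encodes periostin, a fasciclin-domain protein of periosteum, valves and activated fibroblasts that promotes collagen crosslinking. WT libraries of day 1 had 4, 16 and 6 counts (0.168, 0.566 and 0.238 CPM), and the KO libraries had 164, 117 and 350 counts (9.09, 6.50 and 17.0 CPM). At day 14 Postn stood at 8.34, 15.1 and 17.3 CPM in WT and at 16.7, 16.4 and 17.3 CPM in KO. All KO libraries of day 1 lay far above the WT libraries, while the groups of day 14 overlapped. In the fit of day 1 Postn passed the filter on low counts only through KO, the group where it is high. The call in that fit is therefore no support for a difference. The log2 fold change at day 1 was 5.02 ± 0.44 (SE, adjusted p = 5.96e-07), the largest among the members. It was 5.71 without WT replicate 2 and 4.54 without KO replicate 3. At day 14 it was 0.30 ± 0.24 (adjusted p = 0.340), and 0.02 without WT replicate 1. Postn was thus the member with the second-largest difference between the days in size (-4.69 ± 0.57, adjusted p = 4.45e-06), and that difference was -5.38 without WT replicate 2 of day 1.

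By the measure used for Thbs2 and Fn1, 2 of the 3 genes nearest to Postn over the 12 libraries are described here, from 9637 named genes whose log2 CPM averaged 3 or more. They were Oas1b, an oligoadenylate synthetase whose reads may be shared with similar Oas1 copies (root mean square difference 0.57), and Ifit1, an antiviral protein (0.65). On day 1 Oas1b had 0.193 ± 0.0302 CPM (WT) against 6.28 ± 1.11 CPM (KO), then 16.8 ± 1.94 against 12.4 ± 2.22 CPM on day 14 (SD, n = 3). Ifit1 stood at 3.26 ± 0.214, 168 ± 11.8, 226.8 ± 40.4 and 303 ± 47.5 CPM in the same order. In both genes WT of day 1 was the low group. That follows from choosing them by nearness to Postn in these same libraries, so it is no separate result.

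Sparcl1 encodes hevin, a relative of Sparc found in vessel walls and at synapses. It measured 1.38, 0.919 and 1.31 CPM in WT and 13.7, 10.6 and 16.9 CPM in KO at day 1. By day 14 it measured 6.196, 7.18 and 8.90 CPM in WT and 34.7, 24.3 and 34.1 CPM in KO. KO lay above WT in every library at both days. The rise was 3.53 ± 0.22 at day 1 (adjusted p = 2.38e-08) and 2.05 ± 0.19 at day 14 (SE, adjusted p = 5.37e-05), and it was smaller at day 14 by -1.45 ± 0.31 (adjusted p = 9.63e-04). No other member was called higher in KO at both days.

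Tgfbi, a fasciclin-domain protein induced by TGF-beta in many cells, failed the filter on low counts in the fits of all libraries, so it has no place in the counts of called members. It had 14, 19 and 7 counts in WT and 0, 0 and 1 in KO at day 1. At day 14 it had 3, 0 and 0 counts in WT and 3, 2 and 3 in KO. The ratio of WT to KO at day 1 was 26.7-fold (95% exact counting interval 4.52 to 1080.4), and the ratio of KO to WT at day 14 was 2.80-fold (0.672 to 16.4). These intervals cover counting error only. With no filter, edgeR gave an adjusted p of 2.65e-04 at day 1 and 0.533 at day 14 for Tgfbi. It also passed the filter when WT replicate 3 or any KO replicate of day 1 was left out, and was then called lower in KO at day 1 in all 4 fits (adjusted p from 0.00153 to 0.00751). In the change of the KO effect between days it was tested in 10 of the 12 fits that leave out 1 library and called in all 10 (adjusted p from 5.70e-04 to 0.0114). In these fits Tgfbi passed the filter only through its counts in WT of day 1, the group where it is high. It was not tested without WT replicate 1 or 2 of day 1. The calls in these fits are therefore no support for a difference.

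Ratios of related members within a library need no scaling between libraries. In the ratios given here KO and WT of a day did not overlap, except for Thbs1 over Thbs2 at day 14. Thbs1 counts were 1.996, 2.06 and 1.89 times those of Thbs2 in WT of day 1, and 0.997, 1.08 and 0.958 times in KO. At day 14 the ratios were 0.958, 1.34 and 1.22 in WT and 1.14, 0.998 and 1.06 in KO, and these overlapped. WT of day 1 stood apart from the other groups, and KO differed from it by -0.97 on the log2 scale. For Fbln1 over Fbln2 the mean ratio was 0.202 ± 0.0173 (WT) against 0.0868 ± 0.0147 (KO) on day 1, then 0.0646 ± 0.00785 against 0.379 ± 0.0191 on day 14 (SD, n = 3). For Sparcl1 over Sparc it was 8.15e-04 ± 1.74e-04 and 0.0197 ± 0.00283 at day 1, and 0.00866 ± 0.00140 and 0.0236 ± 0.00453 at day 14. In both of these pairs KO and WT did not overlap at either day. With 3 libraries against 3 a two-sided exact permutation test cannot give less than p = 0.1, which all of these contrasts reached except Thbs1 over Thbs2 at day 14 (exact permutation p = 0.5), so none can pass 0.05.

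**Figure D4:**
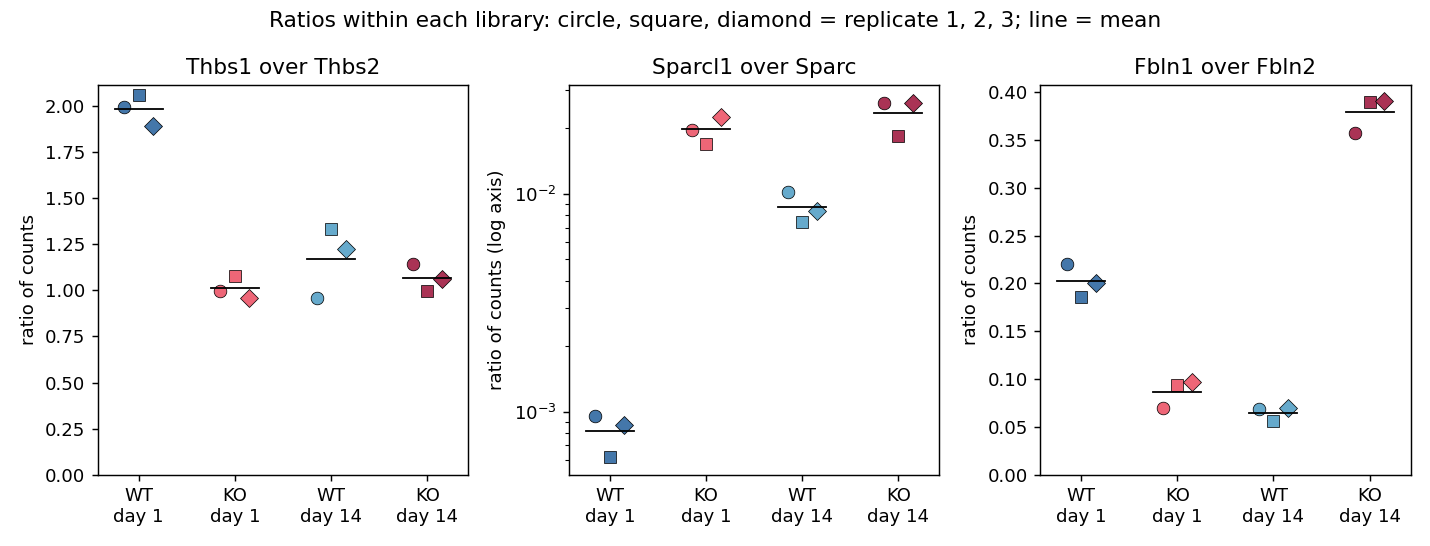
Ratio of the counts of 2 related members within each library (vertical axes, linear from 0 for the thrombospondins and fibulins, logarithmic for Sparcl1 over Sparc), by genotype and day, with the mean of 3 libraries as a line. Thbs1 is near 2 times Thbs2 in WT of day 1 and near 1 in KO of day 1, and Fbln1 over Fbln2 is highest in KO of day 14.

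Between the days, WT and KO cells moved in opposite ways for most members, though each day has its own count table, so the effects of day and of table cannot be told apart. In WT 8 of 9 tested members were called, 6 lower and 2 higher at day 14, against 51.9% of all genes tested. In KO 7 of 9 were called, all higher at day 14, against 54.8%. Fn1 fell by 1.35 ± 0.14 on the log2 scale in WT (adjusted p = 1.62e-06) and rose by 1.44 ± 0.14 in KO (adjusted p = 6.87e-07). Thbs1 fell by 1.92 ± 0.18 in WT (adjusted p = 3.96e-07) and rose by 1.76 ± 0.18 in KO (adjusted p = 7.72e-07). The rise of Fbln1 in KO, 2.88 ± 0.14 (adjusted p = 3.42e-10), was the largest there, and its fall in WT was -1.82 ± 0.14 (adjusted p = 3.89e-08). Postn rose by 5.31 ± 0.46 in WT (adjusted p = 1.81e-07), and its change in KO (0.62 ± 0.31, adjusted p = 0.104) did not pass, except without KO replicate 3 of day 1 (1.11, adjusted p = 0.00696), without WT replicate 1 of day 14 (adjusted p = 0.0293), with the replicate number as a block (adjusted p = 0.0477) or with no filter (adjusted p = 0.0486). Sparcl1 rose in both, by 2.63 ± 0.25 in WT (adjusted p = 4.70e-07) and 1.18 ± 0.19 in KO (adjusted p = 9.75e-05). Tnc fell by 0.34 ± 0.09 in WT (adjusted p = 0.00656), a call lost with library size alone (adjusted p = 0.0779) and without WT replicate 2 of day 14 (adjusted p = 0.0511). All contrasts of pairs of groups share libraries with one another, so their calls are not independent.

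Across days and genotypes together, KO of day 1 and WT of day 14 were the pair of groups with the fewest genes called apart. Of the 9 tested members 3 were called between them, against 9.79% of all genes tested: Tnc (-0.34 ± 0.09, adjusted p = 0.0346) and Fbln2 (-0.75 ± 0.12, adjusted p = 0.00173) were lower and Sparcl1 (0.89 ± 0.20 SE, adjusted p = 0.0147) was higher in KO of day 1. Nr4a3 itself differed between these groups by -6.82 ± 0.21 (SE, adjusted p = 4.84e-11). Whether any library carries the label of another group was not tested, and each reversal between the days rests on the labels as given. The number of calls depended on WT replicate 1 of day 14. Without it, 5538 genes (33.7% of those tested) and 8 of the 9 members were called, among them Thbs1 at -0.75 (adjusted p = 1.20e-08) and Fn1 at -0.26 (adjusted p = 0.00595). The share called was still below that of the other pairs compared across days in that fit. Those were 55.2% between days in WT, 61% between days in KO and 57.3% between KO of day 14 and WT of day 1. The call of Sparcl1 was lost without KO replicate 3 of day 1 (adjusted p = 0.0878) or WT replicate 2 of day 14 (0.0605), and that of Tnc was lost when 9 of the 12 libraries were left out 1 at a time (adjusted p from 0.0508 to 0.151). Between KO of day 14 and WT of day 1, 5 of the 9 members were called, against 50.7% of all genes tested. Sparcl1 (4.70 ± 0.24, adjusted p = 7.23e-10), Postn (5.63 ± 0.45, adjusted p = 1.12e-07) and Fbln1 (0.74 ± 0.13 SE, adjusted p = 1.88e-04) were higher in KO of day 14. Thbs1 (-0.65 ± 0.17, adjusted p = 0.00529) and Tnc (-0.66 ± 0.09 SE, adjusted p = 4.12e-05) were lower. Fn1 (0.03 ± 0.14 SE, adjusted p = 0.879) did not differ beyond its error, and 8 of the 9 were called, against 57.3% of all genes tested, without WT replicate 1 of day 14, a library outside this contrast that enters the shared estimate of spread.

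Put in order of level, Fn1 was highest in KO of day 14 and WT of day 1, which did not differ beyond their spread, followed by WT of day 14 and KO of day 1, which did not either with all libraries in the fit. For Thbs2 and Sparc the lower pair missed the threshold too. Their upper pair, KO of day 14 and WT of day 1, did not overlap but missed the threshold with all libraries (Thbs2 0.24, adjusted p = 0.0955, Sparc -0.16, adjusted p = 0.365). Thbs2 passed there with library size alone (adjusted p = 0.0437) and without WT replicate 1 (9.20e-04) or 3 (0.0496) of day 14, and Sparc without that replicate 1 (adjusted p = 0.0411). For Thbs1 the order was WT of day 1, KO of day 14, WT of day 14 and KO of day 1, and only the last neighbours missed the threshold (-0.50 ± 0.17, adjusted p = 0.0804). They passed with DESeq2 (adjusted p = 0.0384) and with no filter (adjusted p = 0.0221). For Sparcl1 all neighbours in the order KO of day 14, KO of day 1, WT of day 14 and WT of day 1 were called apart.

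Receptor genes mostly fell in KO at day 1 and mostly rose at day 14. Of 24 genes in a list of integrins, syndecans and other receptors of matricellular proteins and fibronectin, 18 were tested at each day. At day 1 KO had 13 of them lower and 1 higher, with a median change of -0.45 on the log2 scale (all genes 0.01). Of all genes tested at day 1, 30.2% were called lower and 30.6% higher. By day 14 KO had 11 higher and 1 lower, with a median of 0.78 (all genes 0.00), against 22.7% higher and 23.7% lower among all genes tested. Itgb3, the β3 chain of the αv integrin that binds fibronectin, periostin and osteopontin, had 12.8 ± 2.70 CPM (KO) against 93.2 ± 2.40 CPM (WT) on day 1 (-2.85 ± 0.11, adjusted p = 3.31e-10), then 72.0 ± 5.61 against 15.5 ± 3.14 CPM on day 14 (2.21 ± 0.16 SE, adjusted p = 1.19e-05). Itgb8, whose αv integrin activates latent TGF-beta, had 7.69 ± 2.04 CPM (KO) against 36.4 ± 0.653 CPM (WT) on day 1 (-2.23 ± 0.15, adjusted p = 3.34e-08), then 41.7 ± 2.59 against 8.81 ± 2.81 CPM on day 14 (2.24 ± 0.22 SE, adjusted p = 6.17e-05). Named after their values were seen, the thrombospondin receptor Cd47 fell at day 1 (-1.18, adjusted p = 1.07e-09) and rose at day 14 (1.21, adjusted p = 1.32e-05). The chains of the main fibronectin receptor, Itga5 (-0.12 and -0.25) and Itgb1 (0.04 and 0.21), did not pass at either day (adjusted p from 0.0639 to 0.638).

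**Figure D5:**
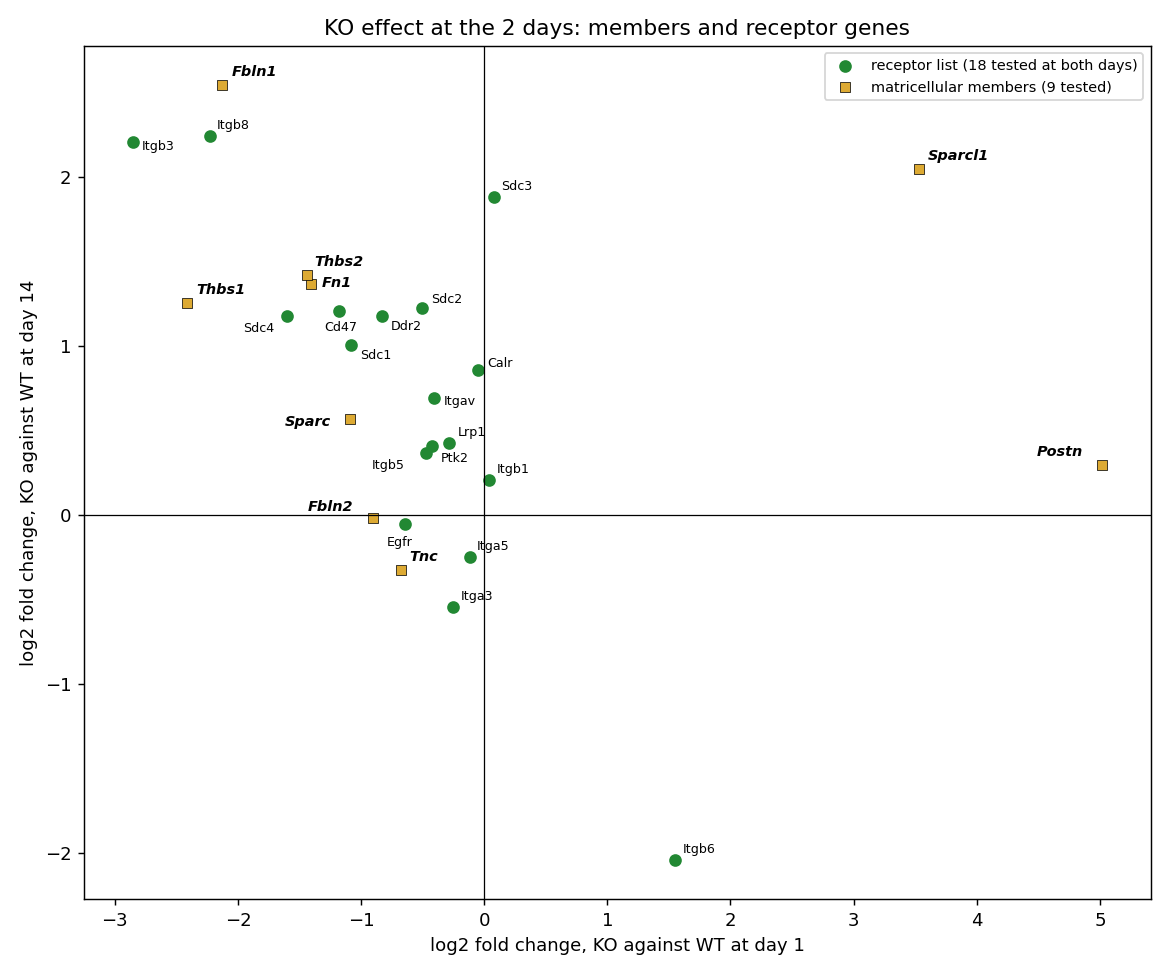
Log2 fold change of KO against WT at day 1 (horizontal axis) and at day 14 (vertical axis) for the 9 tested members (squares) and the 18 receptor genes tested at both days (circles). Of the receptor genes 12, and of the members 5, lie in the upper left, with a negative value at day 1 and a positive one at day 14, whether or not they passed the test. The share of all genes that lie there was not counted, so these numbers do not set the plotted genes apart.

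Other matricellular genes did not share 1 direction. Of a list of 30, 19 were tested at day 1, with 9 higher and 8 lower in KO (median log2 fold change 0.01), and 20 at day 14, with 9 higher and 6 lower (median 0.15). Among all genes tested, 60.8% were called at day 1 and 46.4% at day 14. Spp1, osteopontin, a phosphoprotein of bone and calcified vessels, had 537 ± 92.3 CPM (KO) against 1232 ± 61.9 CPM (WT) on day 1, then 3129 ± 190 against 491 ± 39.9 CPM on day 14 (-1.19 ± 0.10 and 2.66 ± 0.10 SE, adjusted p = 3.95e-07 and 4.95e-07). Ccn2, the connective tissue growth factor listed as Ctgf, was higher in KO at day 1, with 97.0 ± 9.49 against 12.02 ± 0.533 CPM (3.02 ± 0.09, adjusted p = 2.45e-11). At day 14 Ccn2 was lower in KO (-0.71 ± 0.15, adjusted p = 0.00518). Tnxb, tenascin X, was higher in KO at day 1 (44.5 ± 10.6 against 10.97 ± 1.33 CPM, 2.03 ± 0.16, adjusted p = 1.83e-07) and lower at day 14 (6.41 ± 0.589 against 39.4 ± 3.12 CPM, -2.63 ± 0.13, adjusted p = 1.80e-06). The fibulin relative Efemp1 fell at day 1 (-1.55 ± 0.21, adjusted p = 2.57e-05) and rose at day 14 (1.12 ± 0.38, adjusted p = 0.0382). At day 14 Spon2 rose (2.14 ± 0.43, adjusted p = 0.00345) and Smoc1, a relative of Sparc, fell (-2.31 ± 0.20, adjusted p = 3.04e-05). Smoc1 was higher in KO at day 1 (1.98 ± 0.15, adjusted p = 1.24e-07).

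Genes of TGF-beta signalling, a known inducer of several members, were mixed as well. Of 22 tested, 10 were higher and 7 lower in KO at day 1 (median log2 fold change 0.11), and 4 were higher and 6 lower at day 14 (median -0.01). With 60.8% of all genes tested called at day 1 and 46.4% at day 14, being called is common here. At day 1 the target Pmepa1 (1.16 ± 0.11, adjusted p = 1.29e-06) and the latent binding protein Ltbp4 (1.14 ± 0.10, adjusted p = 7.54e-07) rose. Ltbp1, which tethers latent TGF-beta to fibronectin-rich matrix, fell, with 221 ± 1.11 CPM (KO) against 485 ± 14.96 CPM (WT) (-1.13 ± 0.05, adjusted p = 1.30e-09), and so did the co-receptor Tgfbr3 (-0.92 ± 0.08, adjusted p = 5.99e-07). At day 14 Ltbp2 (1.62 ± 0.19, adjusted p = 1.62e-04) and the ligand Tgfb1 (0.92 ± 0.16, adjusted p = 0.00156) rose. The ligand Tgfb2 fell from 71.6 ± 28.1 to 16.8 ± 1.79 CPM (-2.10 ± 0.28, adjusted p = 4.06e-04). Tgfb2 was higher in KO at day 1 (1.12 ± 0.10, adjusted p = 7.97e-07), and Tgfbr3 was higher at day 14 (0.68 ± 0.14, adjusted p = 0.00326).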

How the data were processed

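The deposited values are raw counts per gene, 1 table for each day, as made by the authors, and the submitters' processing notes name the mouse build mm9. Columns headed CTR were read as the WT samples. Which aligner and counter were used, and whether strand was, is not given in the sources used here. Repeated lines (43 at day 1, 53 at day 14) were removed and the tables were joined on the 26728 names they share. Genes were tested on the counts with edgeR 4.0.16 in R 4.3.3 (filterByExpr with a minimum count of 10, TMM scaling, quasi-likelihood test, Benjamini-Hochberg adjustment). KO and WT were compared within a day on its 6 libraries, and other contrasts on all 12. A standard error is the size of the log2 fold change divided by the square root of F. CPM use the scaling of the 12-library fit, and CPM per kb use merged exon lengths of GENCODE M21. The biological coefficient of variation was 0.0770 at day 1 and 0.146 at day 14. The method was tested on simulated data. Alternatives were DESeq2 1.42.0 and its size factors, limma 3.58.1 (voom), library size alone, other filters, the replicate number as a block, and each library left out in turn.

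The members and gene lists were chosen with earlier results of these data known. From each list, at most 2 rises and 2 falls per day were named, the largest among called genes whose log2 CPM averaged 3 or more. Where a gene so named was called in the opposite direction at the other day, that value is given too. For Postn the 3 nearest genes in centred log2 CPM (prior count 2) were named. Predicted genes were passed over, and 2 genes that these rules name are not reported here.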

Additional observations from a re-analysis of the deposited data

Results flagged for a closer look

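The KO effect differed between day 14 and day 1 by the interaction term of edgeR's fit of 12 libraries for every gene listed here. Values are day 14 minus day 1 on the log2 scale. Among the members the difference was 4.70 for Fbln1, 3.69 for Thbs1, 2.88 for Thbs2, 2.80 for Fn1, 1.69 for Sparc, 0.91 for Fbln2 and 0.37 for Tnc, and it was -4.69 for Postn and -1.45 for Sparcl1. For Nr4a3 it was -1.23. The sign of the KO effect itself turned from negative to positive in Fbln1, Thbs1, Thbs2, Fn1 and Sparc. How common such a turn is among all genes was not counted.

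Among the other matricellular genes it was 3.87 for Spp1, 2.70 for Efemp1, 1.49 for Spon2, -3.71 for Ccn2, -4.27 for Smoc1 and -4.63 for Tnxb. The integrin chains Itgb3 (5.08) and Itgb8 (4.49) lay on the side of Thbs1 and Fbln1. In the TGF-beta list the difference was 1.63 for Ltbp2, 1.62 for Tgfbr3, 1.25 for Ltbp1 and 0.87 for Tgfb1. It was -1.11 for Pmepa1, -1.27 for Ltbp4 and -3.19 for Tgfb2. Since 60.1% of all genes tested were called in this contrast, being called is common here.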

How the results depend on the processing

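Of 1107 values recomputed for members under the alternatives, 1052 kept their direction and their side of the threshold, 17 came to pass, 27 ceased to pass and 11 changed sign; those 11 were all of contrasts that did not pass. Fbln2 at day 14 changed sign with limma-voom (0.0129) and with the replicate block (0.0105), and leaving out 1 library gave -0.21 to 0.0817. Leaving out 1 library gave -0.24 to 0.0284 for Fbln2 between days in WT, -0.0314 to 0.12 for Tnc between days in KO (-0.0507 with library size alone), -0.26 to 0.0489 for Fn1 between KO of day 1 and WT of day 14, and -0.0205 to 0.12 for Fn1 between KO of day 14 and WT of day 1. Leaving out 1 library gave 576 to 5538 called genes and 1 to 8 called members between KO of day 1 and WT of day 14, and 5 to 8 called members between KO of day 14 and WT of day 1. The cause was not tested. With library size alone, 61.6% of called genes were higher in KO at day 1 (50.4% with TMM), 37.9% of those in the change between days (49.2%) and 62.7% of those between days in WT (49.7%). The median log2 change of all genes was then 0.13, -0.22 and 0.13 in these contrasts (0.01, -0.01 and 0.00 with TMM). Same-numbered libraries correlated from -0.0701 to 0.103, so the numbers were not taken as pairs; with the replicate block 9090 genes and 9 members were called at day 1, 6716 and 7 at day 14, and 9524 and 9 in the change between days. Members with few counts (Tgfbi, and Postn in WT of day 1) are limited by depth.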
